A study of Mus with 21 samples.

Results

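Serotonin receptor genes were followed through 4 genotypes of embryonic mouse brain. The genes were chosen by name: 10 rows of the count table, Htr1a, Htr1b, Htr1d, Htr1f, Htr2a, Htr2c, Htr3a, Htr4, Htr5a and Htr7, of 55335 genes listed, and all 10 passed the filter on low counts that left 30552 genes for testing. Poly(A) RNA came from whole brain of female E17.5 embryos on a C57BL/6J background. There were 5 WT brains (Wapl +/+; Nipbl +/+), 7 WaplΔ/+ brains (Wapl delta/+ or +/delta; Nipbl +/+), 3 Nipbl+/- brains (Wapl +/+; Nipbl +/delta) and 6 double heterozygotes (Wapl delta/+ or +/delta; Nipbl +/delta). The WaplΔ allele lacks the promoter and the exon that holds the start codon. It was made by a cross to E2a-Cre females and then backcrossed to C57BL/6J, so the embryos inherited it. The Nipbl null allele was made by Stra8-icre in the male germ line, so both losses were present in every cell of the embryo. NIPBL loads the ring-shaped cohesin complex onto chromosomes and WAPL releases it. The study asked whether a lower dose of Wapl changes gene expression in Nipbl+/- brain.

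Serotonin is made by neurons of the brainstem raphe, whose axons reach most of the brain before birth. Nearly all of its receptors signal through G proteins: the Htr1 and Htr5 types through inhibitory Gi/o proteins, the Htr2 type through Gq and phospholipase C, and the Htr4, Htr6 and Htr7 types through stimulatory Gs proteins and adenylyl cyclase. Htr3a is the exception, because it encodes a subunit of an ion channel that serotonin opens directly.

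The receptor genes are scattered over the genome. In the RefSeq table for GRCm38.p6, the build given for these counts, Htr1a (ENSMUSG00000021721.5) lies at chr13:105443693-105448133 and Htr1b (ENSMUSG00000049511.5) at chr9:81628291-81633832. Htr1d (ENSMUSG00000070687.11) lies at chr4:136423522-136444405 and Htr1f (ENSMUSG00000050783.5) at chr16:64924729-65105784. Htr2a (ENSMUSG00000034997.5) lies at chr14:74640874-74706859 and Htr2c (ENSMUSG00000041380.13) at chrX:146962464-147197277. Htr5a (ENSMUSG00000039106.6) lies at chr5:27841716-27855086, Htr7 (ENSMUSG00000024798.15) at chr19:35958415-36058133 and Htr3a (ENSMUSG00000032269.8) at chr9:48899213-48911152. Values of Htr1b, Htr3a and Htr4 may hold reads of a long noncoding RNA whose span overlaps theirs (D430036J16Rik, Gm32335 and Gm36316), since a strand setting for counting was not given in the sources used here. The span of Htr2c holds 8 small RNA genes.

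Libraries held 25682566 to 35818767 counts on genes. Both targeted genes matched the labels: Nipbl read 1104 to 1287 normalized counts in the Nipbl+/- brains and 1135 to 1244 in the double heterozygotes, against 2019 to 2402 in WT, and Wapl read 590 to 755 in WaplΔ/+ and 704 to 775 in the double heterozygotes, against 1389 to 1606 in WT. The tissue label was matched by 6 neuronal markers, all detected, whose summed level was 135352 to 158635 normalized counts per library. The mitochondrial transcript mt-Nd3 divided the libraries as well, with 52 to 106 raw counts in 9 of them and 0 to 6 in 12. All 3 Nipbl+/- libraries were in the low set, with 3 of 5 WT, 2 of 7 WaplΔ/+ and 4 of 6 double heterozygotes, and the labels name no batch. Among the 13 libraries with a Wapl deletion, all 6 whose genotype label writes the deleted allele first (delta/+) were in the low set and all 7 with +/delta were in the high set. The paper describes 2 crosses, with the Wapl deletion carried by the dam in the first and by the sire in the second. The cross of each library and what the order stands for are not given in the sources used here. Order, cross, parent of origin and mt-Nd3 set therefore cannot be told apart. WT replicate 2 and double heterozygote replicate 6 stood apart in pituitary markers, at 2783 and 1245 normalized counts summed over 6 genes, against group medians of 45.7 to 72.6. The receptor calls in the double heterozygotes were 3 without the first and 4 without the second. Double heterozygote replicate 5 was raised to a lesser degree, at 201 normalized counts of Gh and 101 of Pomc. Apart from these libraries, the highest values were 22.3 and 49.7.

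**Figure D1:**
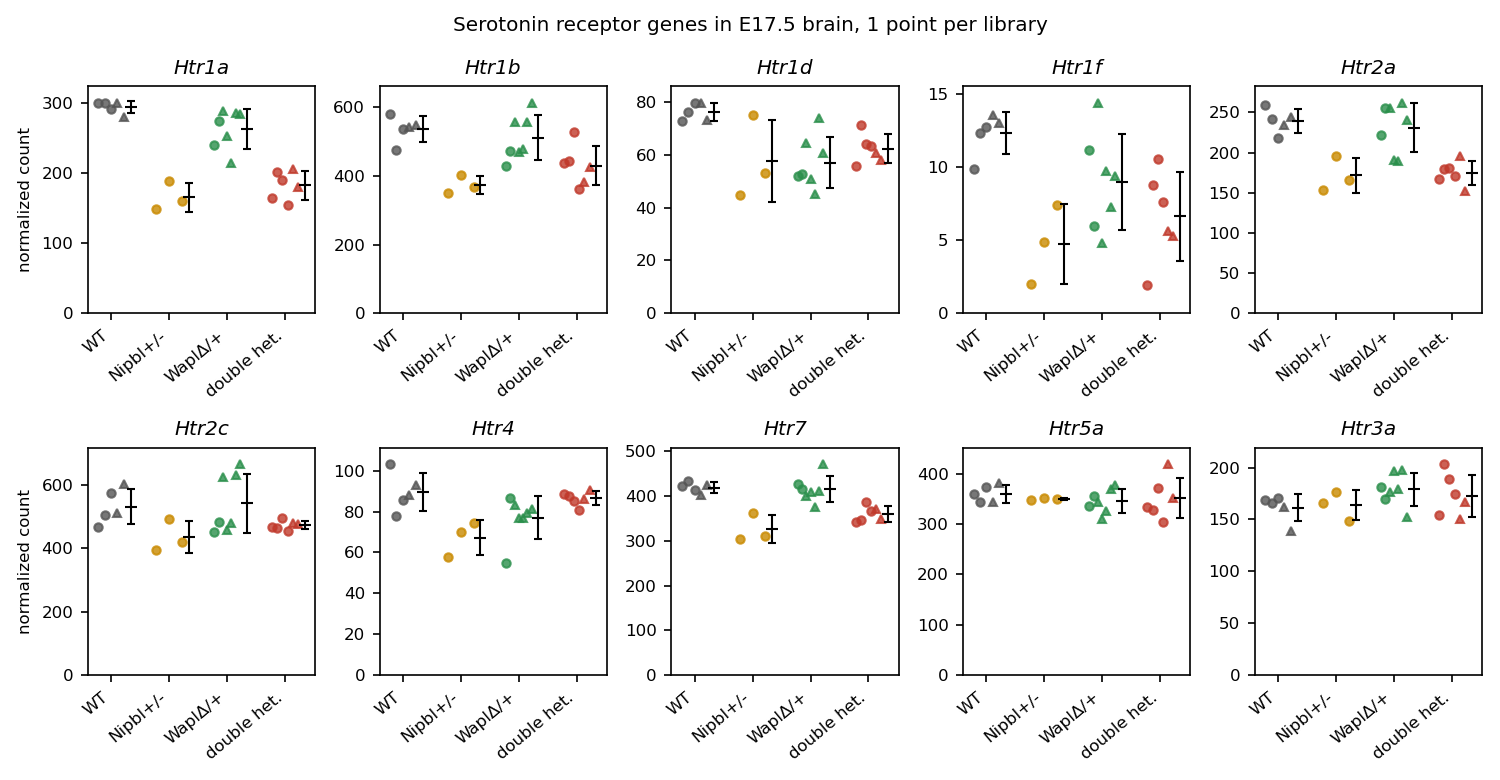
Normalized counts (y axis, linear from 0) of the 10 serotonin receptor genes in each library, by genotype (x axis); circles are libraries with low and triangles with high mt-Nd3 counts, and black bars give the mean ± SD. For Htr1a the 3 Nipbl+/- brains (149 to 189) and the 6 double heterozygotes (155 to 206) lie wholly below the 5 WT brains (281 to 301), while Htr5a and Htr3a overlap in every genotype.

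In Nipbl+/- brain most serotonin receptor genes were lower than in WT and none was higher. At an adjusted P below 0.10, 7 of the 10 genes passed edgeR's quasi-likelihood test, all of them lower, where 11.2% of all genes tested passed in either direction and 6.96% passed as lower. Htr1a changed most clearly, to 56.2% ± 6.90 (SD, n = 3) of the WT mean, followed by Htr1b at 69.5% ± 4.99, Htr2a at 71.6% ± 9.02 and Htr7 at 77.7% ± 7.45. In 6 of the 10 genes every Nipbl+/- library lay below every WT library, against 6.9% of all genes. The median log2 fold change over the 10 genes was -0.41, beside -0.01 over all genes tested. Counts from all 10 genes together came to 2722 ± 66.7 normalized counts in WT and 2115 ± 181 in Nipbl+/- brain.

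Among the Gi-coupled receptors, Htr1a encodes the autoreceptor of raphe neurons, which is also found on hippocampal and cortical pyramidal cells. Its normalized counts in WT replicates 1 to 5 were 300.3, 300.6, 293, 300.7 and 281, and in Nipbl+/- replicates 1 to 3 they were 149, 189 and 160. The groups did not overlap, and the log2 fold change was -0.83 (SE 0.09, adjusted P = 3.94e-05). Htr1b encodes a receptor of axon terminals that is known from thalamocortical axons during development. WT libraries read 581, 476, 537, 541 and 548 normalized counts for Htr1b, and Nipbl+/- libraries read 349.9, 402 and 367. Again all 3 Nipbl+/- values were below all 5 WT values, at a log2 fold change of -0.53 (SE 0.07, adjusted P = 0.000187).

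Htr1d, a close relative of Htr1b, read 72.6, 75.9, 79.5, 79.6 and 73.0 normalized counts in WT and 44.7, 74.8 and 53.0 in Nipbl+/- brain. Nipbl+/- replicate 2 fell inside the WT range, and the difference did not pass (log2 fold change -0.41, SE 0.16, adjusted P = 0.138). Without that library it did, at a log2 fold change of -0.65 and an adjusted P of 0.0102. Htr1f, another Gi-coupled receptor, had very few counts, 11 to 14 raw counts per WT library and 2, 5 and 7 in the Nipbl+/- libraries. Its groups did not overlap and the log2 fold change was -1.37 (SE 0.38, adjusted P = 0.0347), but without Nipbl+/- replicate 1 the adjusted P was 0.202.

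Htr2a encodes a Gq-coupled receptor of cortical pyramidal neurons. It read 259, 242, 218, 235 and 244 normalized counts in WT and 153, 195 and 166 in Nipbl+/- brain, without overlap, for a log2 fold change of -0.49 (SE 0.10, adjusted P = 0.00373). Htr2c, the Gq-coupled receptor best known from the choroid plexus, read 466, 506, 575, 510.3 and 602 in WT and 395, 492 and 419.6 in Nipbl+/- brain. These groups overlapped at Nipbl+/- replicate 2, and the log2 fold change of -0.29 (SE 0.09, adjusted P = 0.0454) did not pass without WT replicate 5 (adjusted P = 0.116), Nipbl+/- replicate 1 (0.241) or Nipbl+/- replicate 3 (0.159). Of 10 choroid plexus markers 1 was higher in Nipbl+/- brain (Otx2, log2 fold change 0.23) and 1 lower (Prlr, -0.69), and their summed level was 13282 to 27571 normalized counts in WT and 17649 to 21324 in Nipbl+/- brain. Of all genes 11.2% were called in this contrast. The part of choroid plexus content in the Htr2c values was not tested.

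Among the Gs-coupled receptors Htr7 and Htr4 were called lower as well, and Htr6 was not called. Htr7, a receptor known from thalamus and hippocampus, read 422, 433, 413, 402 and 425 normalized counts in WT and 304, 362 and 312 in Nipbl+/- brain, without overlap (log2 fold change -0.37, SE 0.07, adjusted P = 0.00329). Htr4 read 103, 78.0, 85.4, 88.3 and 93.0 in WT and 57.7, 70.0 and 74.2 in Nipbl+/- brain, also without overlap (log2 fold change -0.42, SE 0.14, adjusted P = 0.0679). The Htr4 call did not hold without WT replicate 1 (adjusted P = 0.169), WT replicate 4 (0.103), WT replicate 5 (0.122) or Nipbl+/- replicate 1 (0.312).

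A pair of receptor genes showed little difference. Htr5a, a Gi-coupled receptor, read 343 to 382 normalized counts in WT, with a median of 359.5, and 348, 352 and 349.7 in Nipbl+/- brain, a log2 fold change of -0.05 with a 95% interval of -0.19 to 0.09 (adjusted P = 0.764). Htr3a, the ion channel subunit and a marker of interneurons born in the caudal ganglionic eminence, read 168.5, 166, 171, 162 and 139 in WT and 166, 177 and 148 in Nipbl+/- brain. Its log2 fold change was 0.02, with an interval of -0.20 to 0.23 (adjusted P = 0.960), and the sign turned under several other settings. Other genes listed as markers of those interneurons were mixed: of 7 markers, Adarb2 was higher (log2 fold change 0.15) and Cck (-0.57), Prox1 (-0.26) and Calb2 (-0.28) were lower. How far whole-brain levels of these genes reflect those interneurons was not tested. Over all genes 4.25% were called higher and 6.96% lower.

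Since every Nipbl+/- library was in the low mt-Nd3 set, the same contrast was fitted on the 3 Nipbl+/- and 3 WT libraries of that set. Then 4 genes were called, Htr1a (log2 fold change -0.85), Htr1b (-0.52), Htr2a (-0.49) and Htr7 (-0.38). Htr1f, Htr2c and Htr4 kept their direction, at -1.28, -0.25 and -0.41, with adjusted P values of 0.155, 0.202 and 0.201. Leaving out Nipbl+/- replicate 1 also left 4 calls, and leaving out Nipbl+/- replicate 2 gave 8.

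**Figure D2:**
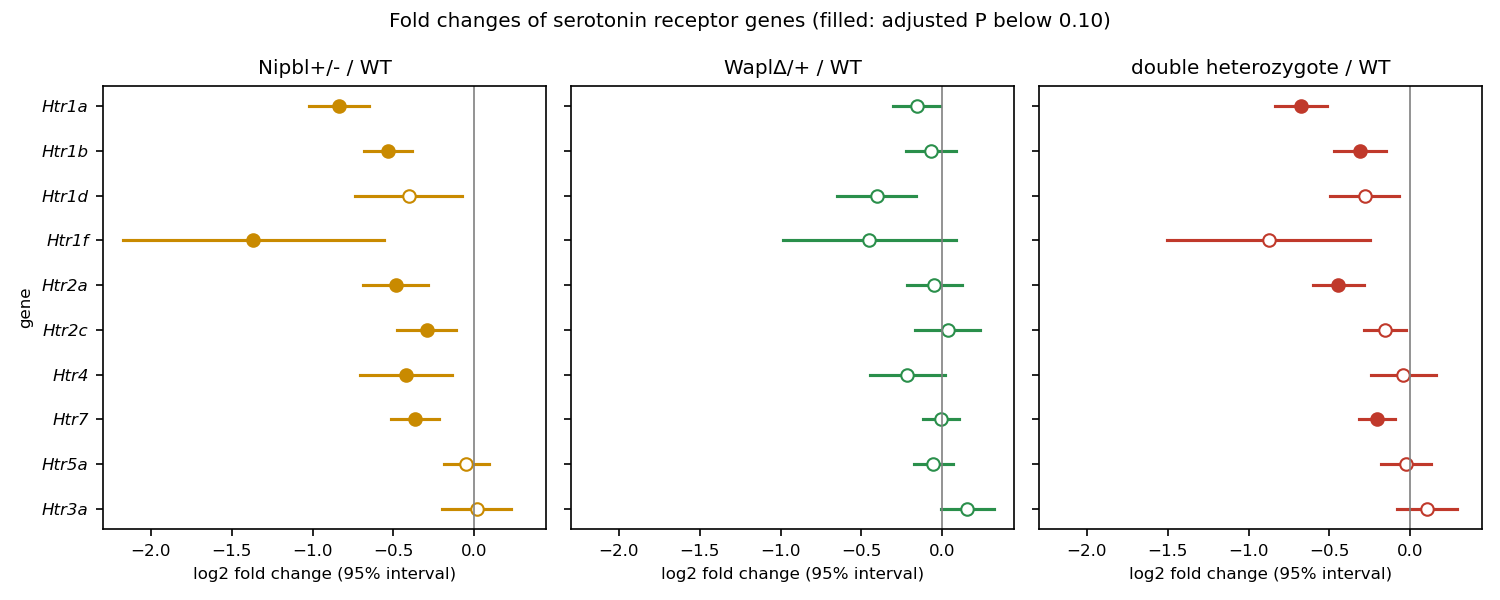
Log2 fold change (x axis, with 95% intervals) of each receptor gene (y axis) in Nipbl+/-, WaplΔ/+ and double heterozygous brain against the same 5 WT libraries; filled points had an adjusted P below 0.10. There are 7 filled points for Nipbl+/-, none for WaplΔ/+ and 4 for the double heterozygotes, all to the left of 0.

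WaplΔ/+ brain showed no receptor gene that passed. None of the 10 was called by edgeR or by DESeq2, where 2.22% of all genes were called by edgeR, and in none of the 10 did WaplΔ/+ and WT libraries separate, against 1.2% of all genes. Those with an unadjusted P below 0.05 were 2 of 10 (Htr1a and Htr1d), beside 15.6% of all genes. The median log2 fold change was -0.06, beside 0.00 over all genes. Htr1d came nearest, with 45.0 to 73.9 normalized counts and a median of 52.7 in 7 WaplΔ/+ libraries against 72.6 to 79.6 in WT, a mean of 74.9% ± 12.9 of WT. Only WaplΔ/+ replicate 6 reached the WT range, and the log2 fold change was -0.41 (SE 0.12, adjusted P = 0.103). This value passed without WaplΔ/+ replicate 3 (adjusted P = 0.0895) or replicate 6 (0.0554), which makes it a borderline result. Htr1a read 214 to 289 with a median of 275, or 89.2% ± 9.59 of WT, a log2 fold change of -0.16 (SE 0.07, adjusted P = 0.274).

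For the other receptors the intervals against WT set limits on what these 7 brains could hold. Htr7 had a log2 fold change of -0.01 with a 95% interval of -0.12 to 0.10, Htr5a -0.06 (-0.18 to 0.06), Htr1b -0.07 (-0.22 to 0.09) and Htr2a -0.05 (-0.22 to 0.12). Htr2c was at 0.03 (-0.17 to 0.24), Htr3a at 0.15 (-0.01 to 0.32) and Htr4 at -0.22 (-0.45 to 0.02). Htr1f, at few counts, was at -0.45 with the widest interval of the 10, -0.98 to 0.08.

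For several receptor genes the WaplΔ/+ libraries were spread more widely than the WT libraries, a difference that was not tested. The SD of Htr1a was 28.3 normalized counts over 7 WaplΔ/+ libraries and 8.62 over 5 WT libraries, that of Htr2a was 30.4 against 15.0, and that of Htr2c was 94.0 against 55.3. The same libraries were low across several genes: 8 of the 10 genes lay below the WT range in WaplΔ/+ replicate 4, 7 in replicate 5 and 6 in replicate 1. In replicate 6 a single gene, and in replicates 3 and 7 only 2 genes, lay below that range, and 3 genes lay above it in each of these libraries. All 3 of those libraries were in the high mt-Nd3 set, but so were replicates 4 and 5.

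**Figure D3:**
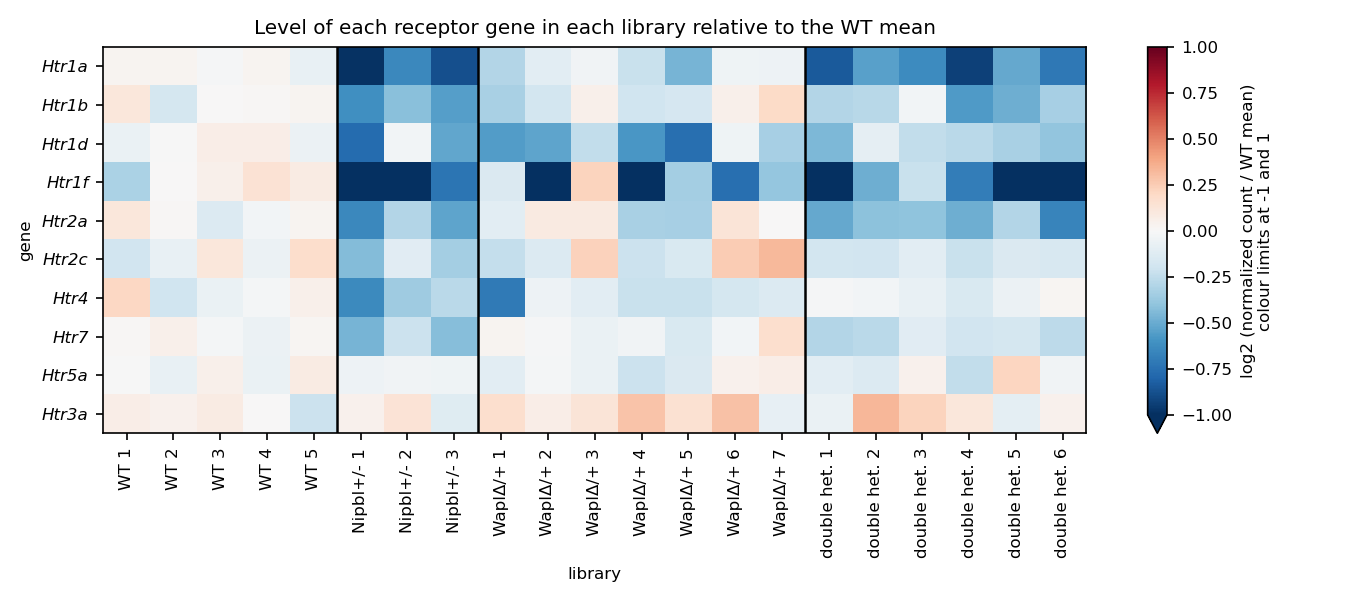
Log2 ratio of the normalized count to the WT mean for each receptor gene (rows) in each of the 21 libraries (columns, grouped by genotype), with blue for lower and red for higher and colours limited at -1 and 1. Htr1a and Htr2a are blue in all Nipbl+/- and all double heterozygous libraries, and WaplΔ/+ libraries range from blue (replicates 1, 4 and 5) to near white or red (replicates 3, 6 and 7).

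In the double heterozygotes, 4 of the 10 genes were called, again all lower than in WT, where 3.28% of all genes were called in either direction and 2.46% as lower. These were Htr1a at 62.1% ± 6.97 of the WT mean, Htr2a at 72.8% ± 6.14, Htr1b at 80.1% ± 10.7 and Htr7 at 86.0% ± 4.14 (SD, n = 6). Every double heterozygote lay below every WT library for 4 genes, Htr1a, Htr1d, Htr2a and Htr7, against 2.29% of all genes that separated in that direction. The median log2 fold change was -0.24, beside 0.00 over all genes. This comparison used the same 5 WT libraries as the Nipbl+/- and WaplΔ/+ comparisons.

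Htr1a in the double heterozygotes ranged from 155 to 206 normalized counts, with a median of 185, and the log2 fold change from WT was -0.68 (SE 0.08, adjusted P = 9.1e-05). Htr2a ranged from 152 to 195 with a median of 176, at -0.45 (SE 0.08, adjusted P = 0.00381). Both calls held in every fit that left out 1 library, and in the 4 low mt-Nd3 double heterozygotes against the 3 low WT libraries they were -0.73 and -0.45. Htr1b ranged from 363 to 527 with a median of 432, so that replicate 3 lay inside the WT range, and its log2 fold change was -0.31 (SE 0.08, adjusted P = 0.0429). Htr7 ranged from 342 to 387 with a median of 357, below all WT libraries, at -0.21 (SE 0.05, adjusted P = 0.0493).

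The Htr1b and Htr7 calls were less firm. In the low mt-Nd3 libraries alone, 4 double heterozygotes against 3 WT, the log2 fold changes were -0.25 for Htr1b and -0.22 for Htr7, and they did not pass (adjusted P = 0.272 and 0.167). Without WT replicate 1 neither passed (0.134 and 0.112), which left 2 calls. Htr1b was also lost without WT replicate 4 (0.113) or double heterozygote replicate 4 (0.101), and Htr7 without WT replicate 2 (0.107), a library high in pituitary markers, or double heterozygote replicate 1 (0.118). Without double heterozygote replicate 3, Htr1f passed as well (adjusted P = 0.0669), which gave 5 calls.

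The receptor genes that were not called in the double heterozygotes fell into those with a lower estimate and those near WT. Htr1d ranged from 55.9 to 71.4 normalized counts, with a log2 fold change of -0.28 (SE 0.10, adjusted P = 0.197), and Htr1f from 1.93 to 10.5, at -0.88 (SE 0.30, adjusted P = 0.168). Htr2c ranged from 455 to 495, a narrow spread inside which 2 libraries lay below the lowest WT library, at -0.16 (SE 0.06, adjusted P = 0.251). Htr4 ranged from 80.6 to 90.6, all within the WT range, at -0.04 with an interval of -0.24 to 0.16. Htr5a was at -0.02 (-0.18 to 0.13) and Htr3a at 0.11 (-0.08 to 0.29).

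The direct comparison of double heterozygotes with Nipbl+/- brain asks what loss of a Wapl copy adds to loss of a Nipbl copy. None of the 10 receptor genes was called by edgeR or by DESeq2, but edgeR called only 2 of 30552 genes in this contrast (0.00655%), one of them Wapl itself. All 10 log2 fold changes were above 0, as were 15701 of the 30552 genes, with a median of 0.14 beside 0.00 over all genes tested. The signs of Htr1d, Htr2a and Htr5a turned when certain single libraries were left out. The group means of the double heterozygotes lay between those of WT and Nipbl+/- brain for 9 of the 10 genes, all but Htr3a. The same 3 Nipbl+/- libraries enter this contrast and the one with WT. Several receptor genes also varied together, so these are not 10 separate results. Of the single genes, Htr4 had an unadjusted P below 0.05, 1 gene of 10 beside 4.12% of all genes. Htr4 read 80.6 to 90.6 normalized counts in the double heterozygotes against 57.7 to 74.2 in Nipbl+/- brain, without overlap, at a log2 fold change of 0.37 (SE 0.12), but its adjusted P was 0.971.

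For the genes that were lowest in Nipbl+/- brain, the difference between double heterozygotes and Nipbl+/- brain was small against its interval. Htr1a was at 0.15 (95% interval -0.10 to 0.39), Htr2a at 0.03 (-0.20 to 0.26), Htr1b at 0.21 (0.00 to 0.42) and Htr7 at 0.15 (-0.02 to 0.32) on the log2 scale.

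Against WaplΔ/+ brain the double heterozygotes had 2 of the 10 genes called, both lower, where 1.02% of all genes were called in either direction and 0.812% as lower. Htr1a was at a log2 fold change of -0.52 (SE 0.08, adjusted P = 0.00398), and its highest double heterozygote, at 206 normalized counts, was below the lowest WaplΔ/+ library, at 214. Htr2a was at -0.40 (SE 0.09, adjusted P = 0.0414) with groups that overlapped, and it did not pass without WaplΔ/+ replicate 3 (0.109), WaplΔ/+ replicate 6 (0.104) or double heterozygote replicate 1 (0.106). Htr7 was at -0.20 (SE 0.05) with an adjusted P of 0.122 by edgeR and 0.0398 by DESeq2, and 0.0757 by edgeR without WaplΔ/+ replicate 5. In the low mt-Nd3 libraries, which hold only 2 WaplΔ/+ brains, no gene passed, with Htr1a at -0.53 and Htr2a at -0.44.

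The interaction term tests whether the effects of both losses add up on the log2 scale. It was called for none of the 10 genes and for none of the 30552 tested by edgeR, whereas DESeq2 called 793 genes, none of them a receptor gene. The edgeR count over all genes depended on single libraries. It was 945 without double heterozygote replicate 6 and 253 without WaplΔ/+ replicate 2, again with no receptor gene. At an unadjusted P below 0.05 there were 3 receptor genes, beside 13.8% of all genes: Htr4 (log2 interaction 0.56, SE 0.16, adjusted P = 0.200), Htr1d (0.49, SE 0.19, adjusted P = 0.252) and Htr1a (0.28, SE 0.13, adjusted P = 0.327). Of the 10 terms 9 were above 0, as were 14095 of the 30552 genes tested, and the same Nipbl+/- libraries enter these terms.

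The 4 other serotonin receptor genes in the table gave no call in the main edgeR fits against WT in any of the 3 mutant genotypes. At an unadjusted P below 0.05 there was 1 gene in Nipbl+/- brain, 0 in WaplΔ/+ brain and 1 in the double heterozygotes. Over all 30552 genes these counts were 6117, 4780 and 4123. DESeq2 called 1 of the 4 genes, in the double heterozygotes. In that genotype edgeR also called 1 with its filterByExpr filter and 1 without double heterozygote replicate 2. Htr6, a Gs-coupled receptor, read 78.0 to 97.2 normalized counts in WT, 68.6 to 76.8 in Nipbl+/- brain and 50.4 to 74.6 in the double heterozygotes, below WT without overlap in both. Its log2 fold changes were -0.28 (SE 0.13, adjusted P = 0.233) and -0.37 (SE 0.11, adjusted P = 0.107). Htr5b was at 21.2 to 47.0 normalized counts over all libraries, and Htr2b and Htr3b were near the limit of detection, at 0 to 6.00 and 0 to 12.0.

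Genes that serve serotonin itself were called in both directions. Of 10 genes of serotonin synthesis, transport and breakdown, 1 was higher and 1 lower in Nipbl+/- brain, where 11.2% of all genes were called. None was called by edgeR in WaplΔ/+ or double heterozygous brain, where 3 and 6 had an unadjusted P below 0.05 (15.6% and 13.5% of all genes) and DESeq2 called 0 and 1. Without Nipbl+/- replicate 2 the count in Nipbl+/- brain was 5, and in 1 fit of all 4 groups it was 0. The higher gene was Ddc, the decarboxylase that makes serotonin and dopamine (log2 fold change 0.22, SE 0.08, adjusted P = 0.0798), and the lower was Maoa, which breaks serotonin down (-0.21, SE 0.05, adjusted P = 0.0133). Tph2, the rate-limiting enzyme of serotonin synthesis in the brain, read 133 to 162 normalized counts in WT and 138 to 156 in Nipbl+/- brain, a log2 fold change of 0.00 (SE 0.10). Slc6a4, the serotonin transporter, read 341 to 369 in WT and 276 to 353 in Nipbl+/- brain (-0.17, SE 0.08, adjusted P = 0.218).

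Transcription factors of the serotonergic lineage, which are also used by other neurons of midbrain and hindbrain, were higher in part. Of 7 such genes 4 were called higher in Nipbl+/- brain, where 4.25% of all genes were called higher, and none lower: Gata3 (log2 fold change 0.40), Gata2 (0.38), En1 (0.33) and Lmx1b (0.29). In the double heterozygotes, where 0.812% of all genes were called higher, 3 were: Gata3 (0.33), Gata2 (0.31) and En1 (0.31), and in WaplΔ/+ brain none was called by edgeR and 1 by DESeq2, with 2 at an unadjusted P below 0.05. The count was 2 in Nipbl+/- brain without WT replicate 2, and in the double heterozygotes it was 1 in the low mt-Nd3 libraries and 1 without WT replicate 1, 2 or 5 or double heterozygote replicate 1. Fev, the factor most specific to serotonin neurons, was at 0.34 (SE 0.26, adjusted P = 0.531) in Nipbl+/- brain.

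Downstream of the receptors, 12 of 28 genes for receptor partners and signalling were called lower in Nipbl+/- brain and none higher by edgeR, where 6.96% of all genes were called lower, with a median log2 fold change of -0.09 beside -0.01 over all genes. They included a phospholipase C, adenylyl cyclases and a G protein subunit, and signalling by the receptors was not measured. Plcb1, the phospholipase C that Gq activates, read 2267 to 2575 normalized counts in WT and 1395 to 1820 in Nipbl+/- brain, without overlap (log2 fold change -0.52, SE 0.07, adjusted P = 0.000182). Adcy1, a calcium-stimulated adenylyl cyclase of thalamocortical synapses, read 10789 to 13216 in WT and 6014 to 9825 in Nipbl+/- brain, also without overlap (-0.66, SE 0.10, adjusted P = 0.000644). Adcy2, another adenylyl cyclase, was at -0.39 (SE 0.07) and Gnai1, a subunit of the inhibitory Gi protein, at -0.27 (SE 0.05). The count of 12 was 8 in the low mt-Nd3 libraries and 8 to 17 with 1 library left out, lowest without Nipbl+/- replicate 1 and highest without Nipbl+/- replicate 2.

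The double heterozygotes had 7 of these 28 genes called lower (2.46% of all genes), among them Plcb1 (log2 fold change -0.38), Adcy2 (-0.30), Adcy8 (-0.19) and Kcnj3, a potassium channel subunit opened by Gi-coupled receptors (-0.25). WaplΔ/+ brain had 3 called lower by edgeR (1.45% of all genes) and 7 by DESeq2. Those called by edgeR were Adcy1 (-0.47), Gnaq (-0.11), the Gq subunit, and Gnal (-0.16), a subunit related to Gs. With 1 library left out the counts were 3 (without WT replicate 1) to 10 in the double heterozygotes and 0 (without WT replicate 1 or 2) to 6 in WaplΔ/+ brain, and in the low mt-Nd3 libraries they were 3 and 0. Htr1a, Htr1b, Htr2a and Htr7 were not called in WaplΔ/+ brain.

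**Figure D4:**
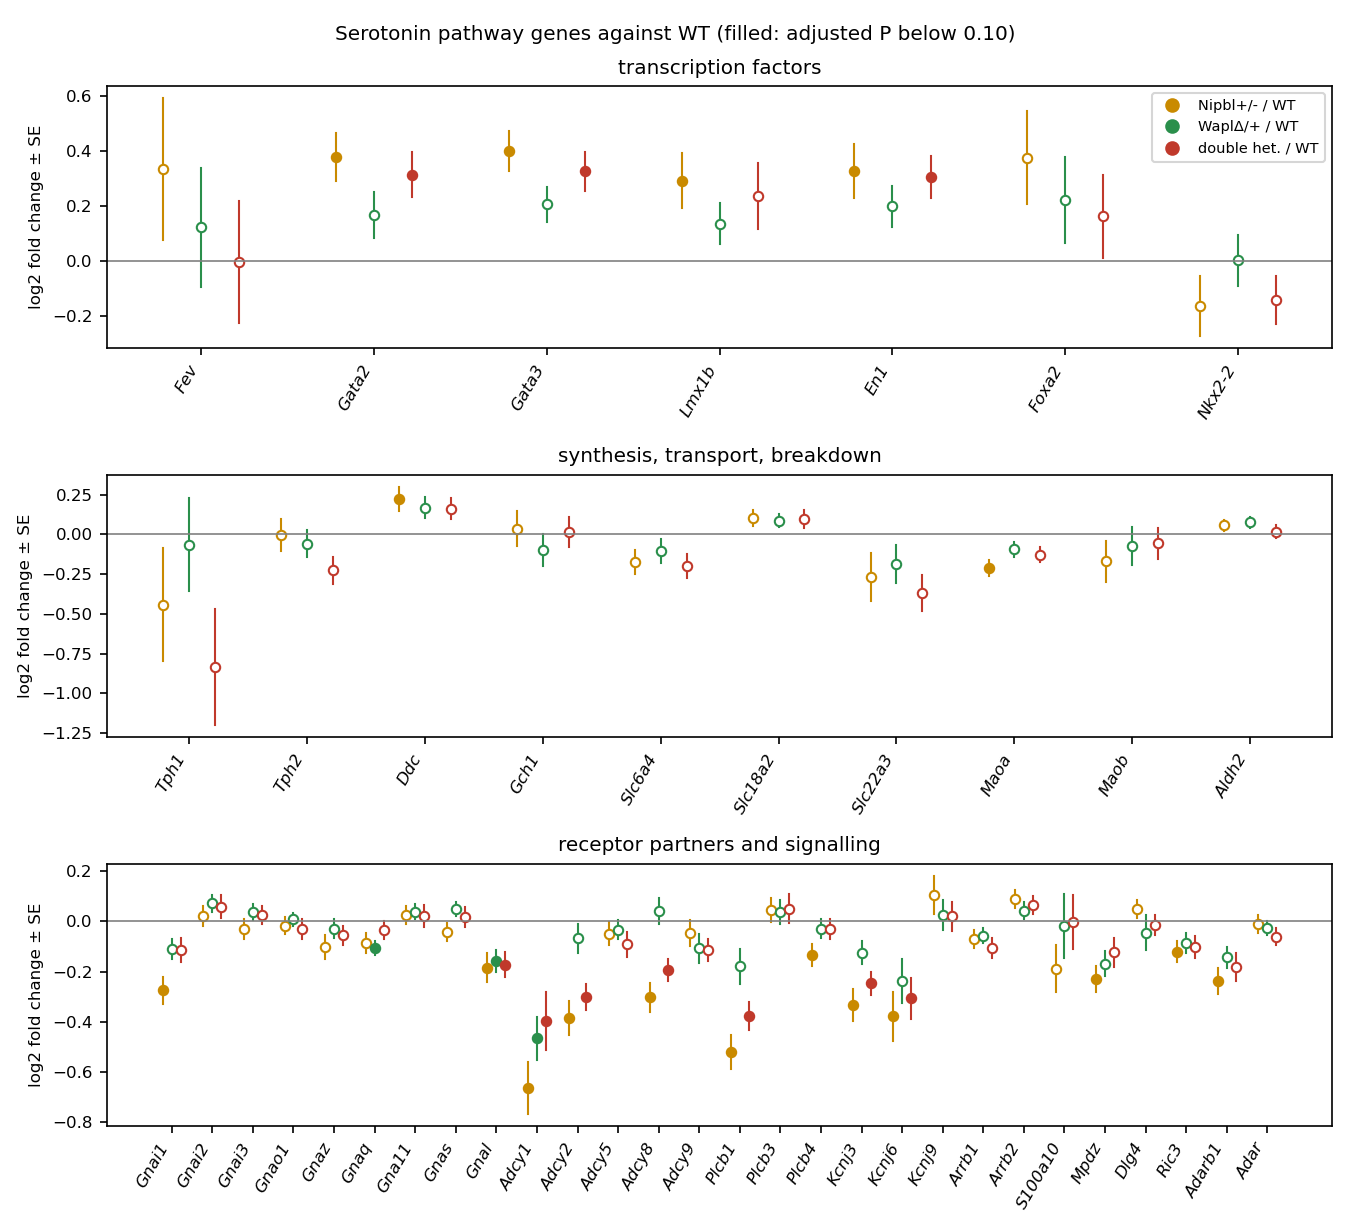
Log2 fold change ± SE (y axis) of genes of the serotonin pathway (x axis) in Nipbl+/-, WaplΔ/+ and double heterozygous brain against WT; filled points had an adjusted P below 0.10. Among 7 transcription factors the filled points lie above 0, among 10 genes of synthesis, transport and breakdown there are 2 filled points, and among 28 receptor partners and signalling genes every filled point lies below 0.

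Markers of cells that could carry these receptors were called in part. Over all genes, 6.96% were called lower and 4.25% higher in Nipbl+/- brain. In the double heterozygotes 2.46% were called lower and 0.812% higher, and 13.5% had an unadjusted P below 0.05. Of 8 markers of striatal projection neurons, 3 were lower in Nipbl+/- brain (Penk, log2 fold change -0.51, Drd1, -0.46, and Tac1, -0.38) and the same 3 in the double heterozygotes, and the summed level of the list was 4250 to 4630 normalized counts in WT, 3533 to 4266 in Nipbl+/- brain and 3704 to 4232 in the double heterozygotes. Of 6 general neuronal markers, Syt1 (-0.27) and Snap25 (-0.15) were lower in Nipbl+/- brain and Syt1 (-0.19) in the double heterozygotes. Their summed level was 144396 to 150645 in WT and 135352 to 144793 in Nipbl+/- brain. Of 6 deep-layer cortical markers Fezf2 (0.22) was higher and Etv1 (-0.52) lower in Nipbl+/- brain, and Etv1 (-0.30) was lower in the double heterozygotes. Of 6 thalamic markers Tcf7l2 (0.19) and Lef1 (0.23) were higher and Rora (-0.16) lower in Nipbl+/- brain. No thalamic marker was called there in 1 fit of all 4 groups or without Nipbl+/- replicate 1. In the double heterozygotes none was called by edgeR (1 at an unadjusted P below 0.05) or DESeq2. The part of these cell types in the receptor values was not tested, and in whole-brain RNA fewer cells of a type and less RNA per cell cannot be told apart.

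The remaining marker lists gave few calls. Over all genes, 2.46% were called lower and 0.812% higher in the double heterozygotes, and 2.22% in either direction in WaplΔ/+ brain. At an unadjusted P below 0.05 the shares were 13.5% in the double heterozygotes and 15.6% in WaplΔ/+ brain. In Nipbl+/- brain 6117 of 30552 genes had an unadjusted P below 0.05. In the double heterozygotes Otx2 (0.25) was higher among the choroid plexus markers, and Cck (-0.40) and Sp8 (-0.23) were lower among the markers of caudal ganglionic eminence interneurons. In WaplΔ/+ brain 2 of 6 meningeal markers were called higher, Col1a1 (0.62) and Col1a2 (0.38). All 6 had higher estimates there, and 5 had an unadjusted P below 0.05. DESeq2 called 3 of them. With a library left out, edgeR called from 0 (without WT replicate 1) to 4 (without WaplΔ/+ replicate 2). The pituitary marker Gh, 1 of 6, was lower in WaplΔ/+ brain with all libraries used, a call that rested on WT replicate 2. With all libraries used, no gene of the 6 for blood was called by edgeR in any of the 3 genotypes. In each, 1 had an unadjusted P below 0.05, and DESeq2 called 1 in the double heterozygotes. All 6 had lower estimates in Nipbl+/- brain, and all 6 were called without Nipbl+/- replicate 3. With a library left out, up to 2 were called in WaplΔ/+ brain and up to 1 in the double heterozygotes. WaplΔ/+ brain gave no call by edgeR among striatal, neuronal, cortical, thalamic, interneuron or choroid plexus markers, where 1, 1, 2, 3, 3 and 2 genes had an unadjusted P below 0.05, whereas DESeq2 called 1 neuronal, 1 thalamic and 1 interneuron marker there.

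The expressed genes next to the receptor genes were examined in the same way. Neighbours were taken among genes that averaged 1 CPM or more, so genes with fewer counts can lie nearer. Their distances ran from 1032 bases (Fbxo38 beside Htr4) to 1456498 bases (Amot beside Htr2c). Of the 20 neighbours of the 10 genes, 5 were called lower in Nipbl+/- brain and none higher, with a median log2 fold change of -0.04. In WaplΔ/+ and in double heterozygous brain 1 neighbour was called lower. Over all 30552 genes tested, which include genes below 1 CPM, 6.96% were called lower in Nipbl+/- brain. The shares were 1.45% in WaplΔ/+ brain and 2.46% in the double heterozygotes. Whether neighbours were called more often than other genes at 1 CPM or more was not tested.

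Across the 21 libraries, the genes whose log2 levels were most like a receptor gene's were searched among the 17302 genes that averaged 1 CPM or more. These correlations are descriptive, since all genes share the libraries and the genotype differences, so r after removal of the group means is given beside each. Htr1a was most like Npy, a neuropeptide of interneurons (Pearson r = 0.96, within groups 0.81), and Cpne4 (0.95 and 0.80). Htr2a was most like Cbln2 (0.94 and 0.78) and Rgs6, a regulator of G protein signalling (0.94 and 0.83). Htr1b was nearest to Kcnd2, a potassium channel (0.92 and 0.82), and Camk2d (0.91 and 0.84), and Htr7 to Pcp4 (0.92 and 0.66) and Gm49948 (0.91 and 0.63).

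Htr2c was most like Enpp2 (0.89 and 0.88), a secreted enzyme abundant in choroid plexus, and Gas6 (0.89 and 0.84). Htr4 was nearest to Ppig (0.88 and 0.79) and Eea1 (0.86 and 0.86), Htr1d to Napg (0.88 and 0.81) and Ipcef1 (0.87 and 0.81), and Htr5a to Tspyl5 (0.83 and 0.86) and Gm26592 (0.79 and 0.81). Htr3a had no gene above 0.70, with Gm15679 (0.70 and 0.65) and Spty2d1 (0.69 and 0.66) the closest. Among the receptor genes themselves, Htr1a and Htr2a had an r of 0.92 (within groups 0.74), whereas Htr1a and Htr3a had 0.04 (within groups 0.13).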

How the data were processed

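Poly(A) RNA of whole brain was sequenced as paired-end reads by the authors, who, per the study methods and processing notes, trimmed with cutadapt 2.4, mapped with STAR 2.5.3a to GRCm38.p6 and counted with featureCounts (Subread 1.6.4). The deposited values are raw counts per gene. Annotation release and strand setting are not given in the sources used here. Replicates are separate embryos by label, and the litter and cross of each library are not given.

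Counts were normalized by TMM. Genes whose normalized counts summed to 10 or more over the 21 libraries were tested with edgeR 4.0.16 (quasi-likelihood, two-sided, R 4.3.3) on the 2 groups compared, with Benjamini-Hochberg adjustment over 30552 genes and a threshold of 0.10. The interaction used all 4 groups. Normalized counts are counts scaled to a common library size and are not corrected for gene length, so levels were not compared between genes. DESeq2 1.42.0, other filters, normalizations, library sets, a replicate block and leaving out each library were alternatives. The code was tested on simulated data. Members and gene lists were chosen with earlier results of these data known. Named were the 10 members, Wapl, Nipbl, called genes of each list (at most 4 per list and comparison, by P), and the 2 genes most correlated with each member among genes over 1 CPM. Positions come from RefSeq GRCm38.p6, which matched all 10. Total counts were 25682566 to 35818767 per library. Precision also depends on the spread between embryos and on the number of libraries, only 3 for Nipbl+/- brain. Htr1f had the fewest counts of the 10 genes.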

Additional observations from a re-analysis of the deposited data

Results flagged for a closer look

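A check for single libraries far from their group was made in 30 sets (10 genes in WT, WaplΔ/+ and double heterozygous brain, since 3 Nipbl+/- libraries are too few), and chance alone marks about 1 in 20. It marked Htr3a in WT replicate 5, at 139 normalized counts, whose gap to the next library was 0.724 of the range of the group. It also marked Htr4 in WaplΔ/+ replicate 1, at 54.8 normalized counts, with a gap of 0.689 of the range.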

How the results depend on the processing

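The number of receptor genes called in Nipbl+/- brain against WT (7) was 4 with the replicate block, 4 with a term for the mt-Nd3 sets and 4 in the low mt-Nd3 libraries alone, and 4 to 8 when 1 library was left out. Against WT, WaplΔ/+ brain (0) had 1 with edgeR's filterByExpr and 1 with the block, both Htr1d, and 0 to 1 with a library left out. The double heterozygotes (4) had 2 in the low mt-Nd3 libraries and 2 to 5 with a library left out. Against WaplΔ/+ brain (2) they had 0 in the low mt-Nd3 libraries and 1 to 3 with a library left out. Against Nipbl+/- brain and for the interaction the count was 0 under every alternative run. Deviations of same-numbered libraries from their group means had r of -0.21 to 0.30. Pairs with different numbers were not compared, so whether the numbers stand for a litter or cross cannot be told. Under the block Htr1f, Htr2c and Htr4 lost the call in Nipbl+/- brain and Htr7 in the double heterozygotes. Htr2c and Htr4 also lost it in 1 fit of all 4 groups, and Htr4 at a threshold of 0.05. Of other log2 fold changes of single genes, 488 of 527 kept direction and call, and 700 of 740 with a library left out.

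Signs turned for values near 0. In Nipbl+/- brain against WT, Htr3a was -0.048 with the block, -0.0454 with the mt-Nd3 term and -0.0455 in the low mt-Nd3 libraries. In WaplΔ/+ brain against WT, Htr7 was 0.0060 in 1 fit of all groups and 0.0015 with the term, and Htr2c was -0.089 with the block, -0.035 with the term and -0.14 in the low libraries. Between double heterozygotes and Nipbl+/- brain, Htr5a was -0.00086 in 1 fit of all groups, -0.023 with the block, -0.063 with the term and -0.066 in the low libraries. In the low libraries, double heterozygotes against WaplΔ/+ brain gave Htr2c 0.013, Htr3a 0.039 and Htr5a -0.045, and the interaction gave Htr3a 0.082 and Htr5a -0.0045. The cause was not tested.

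With a library left out, ranges that crossed 0 were, in Nipbl+/- brain against WT, Htr3a -0.046 to 0.094. In WaplΔ/+ brain against WT they were Htr2c -0.022 to 0.082, Htr7 -0.039 to 0.012 and, outside the receptors, Gh -11.72 to 2.09 (2.09 without WT replicate 2). In the double heterozygotes they were Htr4 -0.091 to 0.011 and Htr5a -0.087 to 0.015 against WT, Htr1d -0.045 to 0.36, Htr2a -0.052 to 0.14 and Htr5a -0.052 to 0.045 against Nipbl+/- brain, Htr5a -0.027 to 0.068 against WaplΔ/+ brain, and for the interaction Htr2a -0.023 to 0.19. Levels as a percent of WT moved by less than 1 SD with DESeq2 size factors, and levels per gene length were not run because exon lengths were not used here. DESeq2 gave Htr1f no adjusted P in any comparison with WT.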
